A study of Rattus norvegicus with 22 samples.

Results

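The miR-30 family was followed through small RNA libraries of rat hippocampus. Its members were taken by name, as every microRNA (miRNA) name with the number 30 and a letter from a to e, whatever the copy or arm, and the rule itself uses no measured value. This rule found 12 of the 468 names in the files. They are rno-miR-30a-5p, rno-miR-30a-3p, rno-miR-30b-5p, rno-miR-30b-3p, rno-miR-30c-5p, rno-miR-30c, rno-miR-30c-1-3p, rno-miR-30c-2-3p, rno-miR-30d-5p, rno-miR-30d-3p, rno-miR-30e-5p and rno-miR-30e-3p, written below without the rat prefix rno. The treated animals (CPF, 11 libraries) were male Long Evans rats, an outbred laboratory strain, aged 14 weeks, that had received chlorpyrifos, an organophosphate insecticide that inhibits acetylcholinesterase, at 10 mg/kg per day under the skin for 21 days. The controls (11 libraries) were male Long Evans rats of the same age given the peanut oil vehicle for 21 days. RNA was taken from hippocampal area CA1, made into libraries with a TruSeq small RNA kit and read on a HiScanSQ. A share of the rats in the protocol went through fear conditioning, and the labels do not tie libraries to that cohort or to animals. The p-values below therefore measure the spread between libraries, which may be technical.

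A miRNA is cut from a hairpin transcript whose arms, called 5p and 3p, can each give a mature strand. The mature strand guides a silencing complex to messenger RNAs, chiefly by pairing of its seed, bases 2 to 8 from the 5′ end. The 5p strands of miR-30 share a seed and can thus share targets, while the 3p strands carry other seeds. In rodent and human brain miR-30a-5p is known to lower Bdnf, the messenger of a growth factor that acts in memory. In human cells miR-30a-5p is known to lower Beclin 1, a protein that starts autophagy. In the RefSeq gene table (assembly GRCr8, used here for neighbourhood only), Mir30b lies next to Mir30d, Mir30a next to Mir30c2, and Mir30c1 next to Mir30e, both within Nfyc, the gene of a transcription factor subunit.

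The mature sequences show which names are told apart by few bases. 6 of the 12 names matched an entry in the RefSeq miRNA table (GRCr8). The other names were miR-30b-5p, miR-30b-3p, miR-30c, miR-30d-5p, miR-30d-3p and miR-30e-3p. Sequences are written 5′ to 3′ with the seed in capitals, grouped by seed, and miR-384-5p, which is outside the family, is added because it carries the seed of the 5p strands.
miR-30a-5p: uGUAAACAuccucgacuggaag
miR-30e-5p: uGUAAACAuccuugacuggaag
miR-30c-5p: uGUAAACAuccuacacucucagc
miR-384-5p: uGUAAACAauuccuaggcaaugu
miR-30c-1-3p: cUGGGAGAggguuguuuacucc
miR-30c-2-3p: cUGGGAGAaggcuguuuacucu
miR-30a-3p: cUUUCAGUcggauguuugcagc

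The seed GUAAACA was held by 4 of the 410 names with a sequence (0.976%), the seed UGGGAGA by 2 (0.488%) and the seed UUUCAGU by 1 (0.244%). Counted from the 5′ end, miR-30a-5p and miR-30e-5p differed by a single substitution, C13U. miR-30c-5p differed from miR-30a-5p at 5 positions, of which C13A was the first. miR-384-5p departed from miR-30a-5p from U9A onward. The strands of both copies of miR-30c on the 3p side differed at 3 positions, the first being G9A. The handling of mismatches and of reads that match several names is not given in the sources used here. The split of reads between miR-30a-5p and miR-30e-5p, and between miR-30c and miR-30c-5p, is therefore uncertain. The names without a matched sequence, miR-30d-5p among them, could not be compared, so a split of reads with them is uncertain too.

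Values are RPM, reads per 1000000 assigned to miRNAs, as deposited. From the steps between low values, the libraries hold an estimated 47844 to 94980 miRNA reads, so 1 read corresponds to 10.5 to 20.9 RPM. A floor of 3 reads corresponds to 31.6 to 62.7 RPM and covers counting error only. The file of control replicate 2 ends early and lacks 36 names, among them miR-30b-3p and miR-30c-2-3p, which were treated as missing. Some libraries stood apart. CPF replicate 1 had 14435 RPM of miR-153-3p, against at most 693 RPM in any other library. CPF replicates 7, 8 and 9 held the highest sums of 9 names typical of choroid plexus and ependyma, among them miR-204-5p, miR-448-3p and miR-34c-5p (0.229 to 0.801% of RPM, against 0.0580 to 0.123% in the other 19 libraries), and none of the 9 was at 0 in all libraries. The 15 neuronal names, among them miR-124-3p, miR-128-3p and miR-9a-5p, summed to 4.96 to 7.74% of RPM in CPF and 5.31 to 7.74% in control libraries, and none was at 0 in all libraries.

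In RPM, the family was abundant and was carried mostly by a single strand. The 12 names summed to 9.08 ± 0.602% of RPM in CPF and 9.58 ± 0.481% in control libraries (SD, n = 11 each). miR-30d-5p made up 76.9 ± 1.52% of that sum in CPF and 76.5 ± 1.17% in control libraries, and miR-30e-5p 17.6 ± 1.5% in CPF and 17.8 ± 1.48% in control libraries. By mean over all libraries miR-30d-5p ranked 3rd of 468 names and miR-30e-5p ranked 12th. The 6 names labelled 3p were minor and summed to 2.59 ± 0.352% of the family in CPF and 2.63 ± 0.431% in control libraries.

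**Figure D1:**
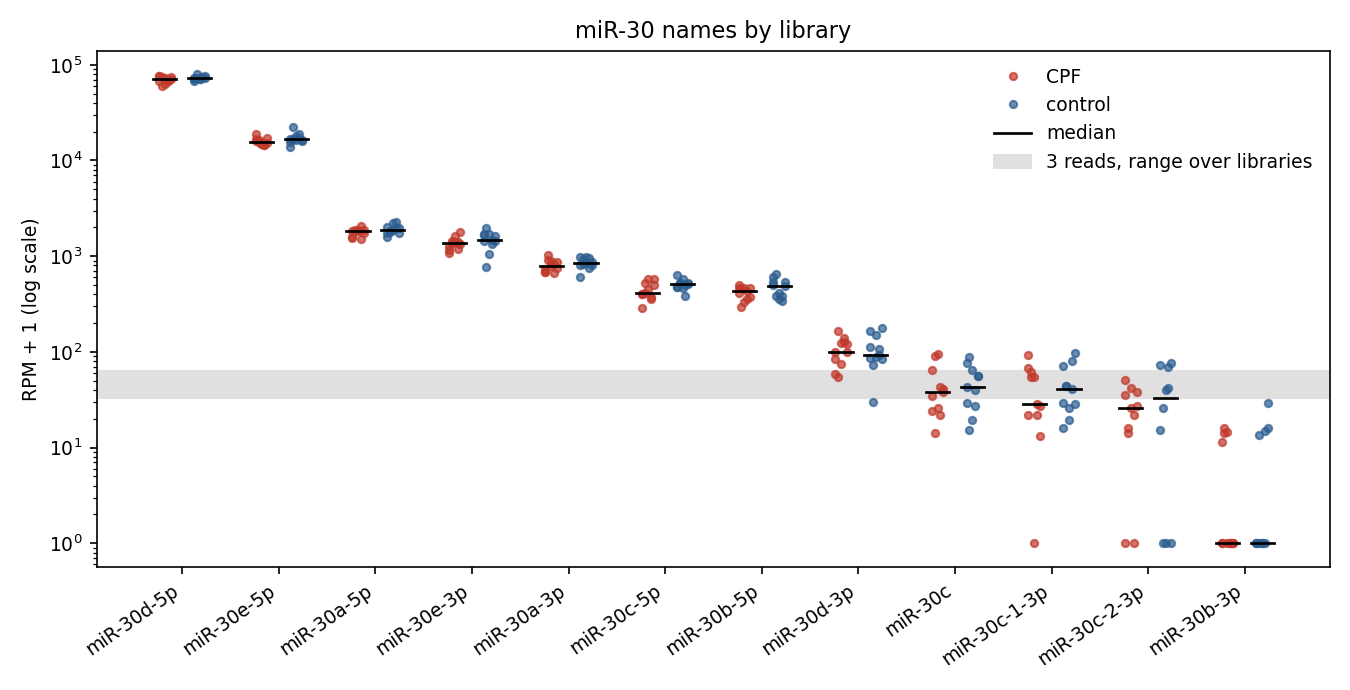
RPM + 1 on a log axis for the 12 miR-30 names in each library, CPF to the left of control, with a bar at the group median and a grey band over the range of 3 reads in the libraries. miR-30d-5p lies between 59854 and 79713 RPM, and the medians of the names from miR-30c rightward lie within or below the band.

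The order of levels was steep at the top. RPM were set side by side without a correction for length or sequence. The sequences shown are 22 or 23 bases long, but those of miR-30d-5p, miR-30d-3p, miR-30e-3p and miR-30b-5p were not matched. Whether different strands were captured equally in the libraries was not tested, so the order is one of RPM. miR-30d-5p averaged 71539 RPM over all libraries and miR-30e-5p 16526 RPM, a 4.33-fold gap that held in 22 of 22 libraries. miR-30a-5p followed at 1847 RPM, below miR-30e-5p in 22 of 22 libraries. miR-30e-3p averaged 1420 RPM, less than miR-30a-5p in 20 of 22 libraries, and miR-30a-3p averaged 828 RPM, less than miR-30e-3p in 21 of 22. These first 5 names kept their order in nearly every library, although the ranges of miR-30a-5p, miR-30e-3p and miR-30a-3p overlapped.

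Further down, some neighbours could not be ordered. miR-30c-5p averaged 476 RPM and miR-30b-5p 442 RPM, and miR-30c-5p was the higher of the pair in 12 of 22 libraries. miR-30d-3p, the other arm of the most abundant strand, averaged 104 RPM, below miR-30b-5p in 22 of 22 libraries. miR-30c averaged 44.7 RPM and miR-30c-1-3p 41.8 RPM, with miR-30c higher in 11 of 22 libraries. These 2 names and the ones below them stood at about 3 reads per library or fewer.

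The comparison of CPF with control asked whether 21 days of exposure moved the family. With limma on log2(RPM + 1), 0 of 11 tested miR-30 names passed an adjusted p of 0.05, and 0 of 11 had an unadjusted p under 0.05. Over all 273 tested miRNAs, 2 passed (0.733%), and 18 had an unadjusted p under 0.05 (6.59%). The 12th name, miR-30b-3p, did not reach 10 RPM in 11 libraries and was not tested. Most of the log2 fold changes lay a little below 0, in 9 of 11 names, with a median of -0.10. Over all tested miRNAs 46.9% lay below 0, with a median of 0.02, and among the 73 with a mean of at least 500 RPM the share was 57.5%. In bulk tissue, fewer cells of a type and less RNA per cell cannot be told apart.

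miR-30d-5p, the strand that sets the family's level, had 59854 RPM at its lowest, 70581 at the median and 76942 at its highest in CPF libraries, against 68260, 72293 and 79713 RPM in control libraries. The groups overlapped, but 5 of 11 CPF libraries lay below the lowest control. The means were 69898 ± 5541 RPM in CPF and 73180 ± 3222 RPM in control libraries (SD, n = 11 each). The log2 fold change was -0.07 (SE 0.0489, 95% CI -0.17 to 0.03, limma adjusted p = 0.806), which did not pass. In CPF replicates 7 and 8, with 59854 and 62486 RPM, the strand was lowest of all, and without CPF replicates 7, 8 and 9 the log2 fold change was -0.02 (limma adjusted p = 0.997).

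miR-30e-5p, the second most abundant strand, had 14392 RPM at its lowest, 15488 at the median and 19078 at its highest in CPF libraries, against 13968, 16701 and 22284 RPM in control libraries. 9 of 11 CPF libraries lay below the control median, within the range of the controls. The log2 fold change was -0.10 (SE 0.0644, 95% CI -0.23 to 0.03, limma adjusted p = 0.788). miR-30a-5p, the strand known to act on Bdnf, had 1526 RPM at its lowest, 1827 at the median and 2058 at its highest in CPF libraries, against 1572, 1865 and 2271 RPM in control libraries. The groups overlapped over most of their range, and the log2 fold change was -0.10 (limma adjusted p = 0.806).

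Among the less abundant 5p strands the fold changes were somewhat larger and the errors larger too. miR-30c-5p, which in RefSeq comes from both Mir30c1 and Mir30c2, had 287 RPM at its lowest, 414 at the median and 583 at its highest in CPF libraries, against 382, 508 and 629 RPM in control libraries. 3 of 11 CPF libraries lay below the lowest control. The log2 fold change was -0.21 (SE 0.119, 95% CI -0.46 to 0.03, limma adjusted p = 0.788). miR-30b-5p, made next to miR-30d, had 294 RPM at its lowest, 431 at the median and 495 at its highest in CPF libraries, against 339, 481 and 649 RPM in control libraries. 10 of 11 CPF libraries lay below the control median, and 2 lay below the lowest control. Its log2 fold change of -0.17 (SE 0.128, 95% CI -0.43 to 0.09, limma adjusted p = 0.806) was -0.05 without CPF replicates 7, 8 and 9.

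The more abundant 3p strands and miR-30c, listed without an arm, showed no called difference either. miR-30e-3p averaged 1368 ± 205 RPM in CPF and 1471 ± 337 RPM in control libraries, and miR-30a-3p averaged 804 ± 111 RPM in CPF and 852 ± 112 RPM in control libraries (SD, n = 11 each), with log2 fold changes of -0.08 for both. With 1 library left out, that of miR-30e-3p ran from -0.17 (without control replicate 7) to -0.03 (without control replicate 2), and that of miR-30a-3p from -0.13 (without control replicate 1) to -0.06. miR-30d-3p averaged 103 ± 34.7 RPM in CPF and 105 ± 43.9 RPM in control libraries, and its log2 fold change of 0.03 changed sign when any of 5 single libraries was left out. miR-30c averaged 43.7 ± 27.4 RPM in CPF and 45.7 ± 23.4 RPM in control libraries, with a log2 fold change of -0.11 that became 0.24 without CPF replicates 7, 8 and 9. At 3.27 reads per library in either group, a change of this name was not detectable unless large, as its 95% CI of -0.92 to 0.70 shows.

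The lowest names were near the floor. miR-30c-1-3p averaged 39.5 ± 27.6 RPM in CPF, with CPF replicate 8 at 0, and 44.1 ± 26.4 RPM in control libraries. Its log2 fold change of -0.51 (95% CI -1.70 to 0.67, limma adjusted p = 0.917) was -0.04 without CPF replicate 8 alone, and ran from -0.69 to -0.38 with any other single library left out. miR-30c-2-3p averaged 23.8 ± 16.0 RPM in 11 CPF and 33.5 ± 30.4 RPM in 10 control libraries, under 3 reads in both groups, so no fold is given. miR-30b-3p was at 0 in 7 of 11 CPF and 6 of 10 control libraries, which at this depth allows up to 31.6 to 62.7 RPM, depending on the library.

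**Figure D2:**
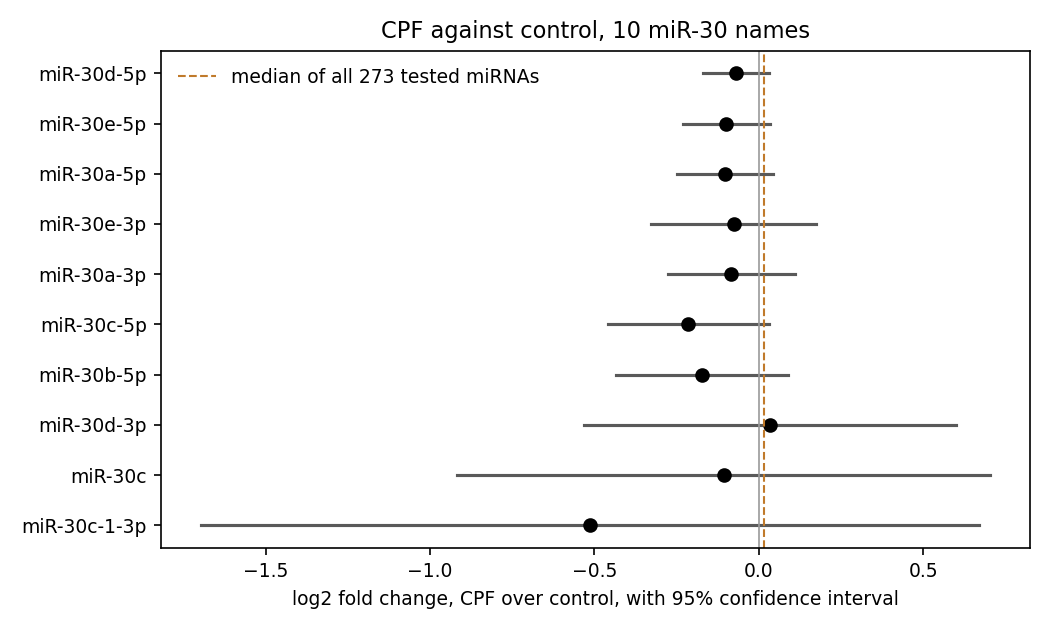
log2 fold change of CPF over control for 10 miR-30 names, in order of abundance, with 95% confidence intervals from limma and a dashed line at the median of all 273 tested miRNAs. 9 of these points lie left of 0 and every interval spans 0; miR-30d-5p has the narrowest interval and miR-30c-1-3p the widest.

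Summed over the family, CPF libraries ran from 8.03 to 9.79% of RPM, with a median of 9.13%, against 8.90 to 10.7% in control libraries, with a median of 9.49%. The lowest sums of all were those of CPF replicates 7, 8 and 9, at 8.03%, 8.29% and 8.62%. The other 19 libraries had 8.67 to 10.7%, with CPF replicate 4 at 8.67%, close to CPF replicate 9. Without those replicates the CPF libraries averaged 9.37 ± 0.379% (SD, n = 8), against 9.58 ± 0.481% in control libraries (n = 11). In the same 3 libraries the vessel wall names, led by miR-143-3p, took 28.0 to 31.2% of RPM, against 21.9 to 29.4% in the other 19 libraries. The neuronal names took 5.56 to 6.38%, against 4.96 to 7.74% in the other 19, so both lists overlapped. The miR-29 names were also lower on average there, at 4.62% against 5.64% of RPM in the other 19 libraries, with overlapping ranges (4.31 to 5.01% and 4.38 to 7.63%). The part of the marker lists in the family's lower share was not tested, and since RPM are shares of a fixed total, a higher share of some names lowers that of others.

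**Figure D3:**
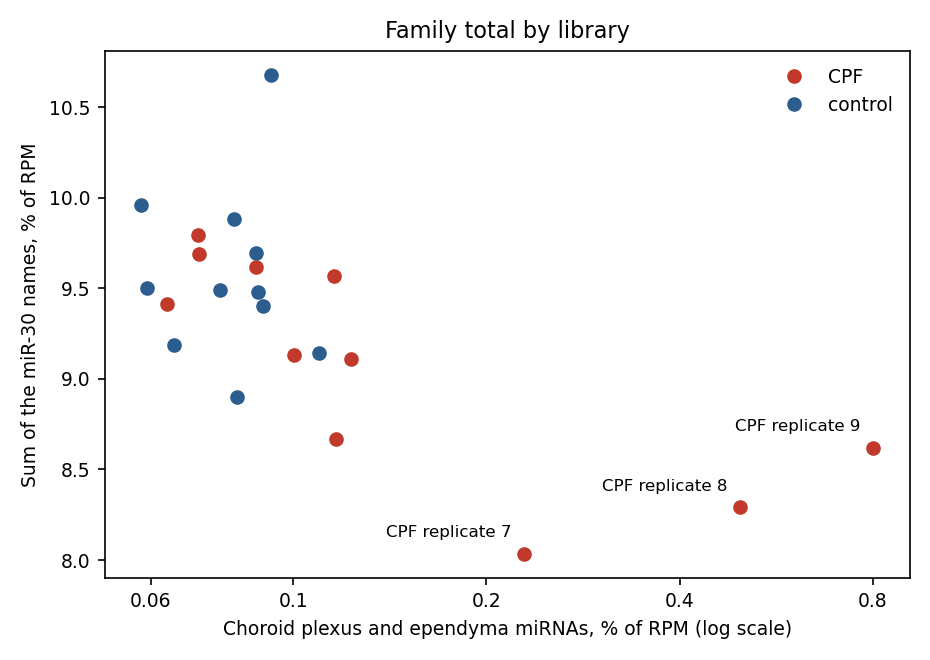
Summed RPM of the 12 miR-30 names (percent of RPM, linear axis that does not start at 0) against the summed RPM of 9 choroid plexus and ependyma names (percent, log axis) for each library. CPF replicates 7, 8 and 9 lie apart at the right, and the other CPF and the control libraries share the left. Their family sums are the lowest, but CPF replicate 9 (8.62%) lies close to CPF replicate 4 (8.67%) on that axis.

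Median shifts in other families were small too, while some names of low level spread more widely. The let-7 names, a family abundant in brain that restrains growth genes, summed to 3.19 ± 0.275% of RPM in CPF and 3.35 ± 0.299% in control libraries (SD, n = 11 each), and 8 of 14 tested names lay below 0, with a median log2 fold change of -0.04. Of the miR-29 names 3 of 6 lay below 0, with a median of 0.03, and of the miR-26 names 2 of 2, with a median of -0.13. No name of these 3 families passed the adjusted threshold. miR-384-5p, which carries the miR-30 seed and is known to act in long-term potentiation in rodent hippocampus, averaged 4065 ± 636 RPM in CPF and 4140 ± 575 RPM in control libraries, above every miR-30 name but miR-30d-5p and miR-30e-5p. Its log2 fold change was -0.03 (limma adjusted p = 0.972).

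The 5p strand exceeded the 3p strand in every library for the 3 hairpins with a ratio computed, miR-30a, miR-30d and miR-30e, by amounts that differed between hairpins. The ratio of 5p to 3p RPM was 2.23 ± 0.218 in CPF and 2.30 ± 0.495 in control libraries for miR-30a (SD, n = 11 each). It was 11.9 ± 2.53 in CPF and 12.7 ± 5.83 in control libraries for miR-30e. For miR-30d it was 752 ± 273 in CPF and 889 ± 650 in control libraries, over a denominator of 7.41 reads on average. The ratios of the 3 hairpins did not overlap with each other in any library, and those of CPF and control overlapped for each hairpin.

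**Figure D4:**
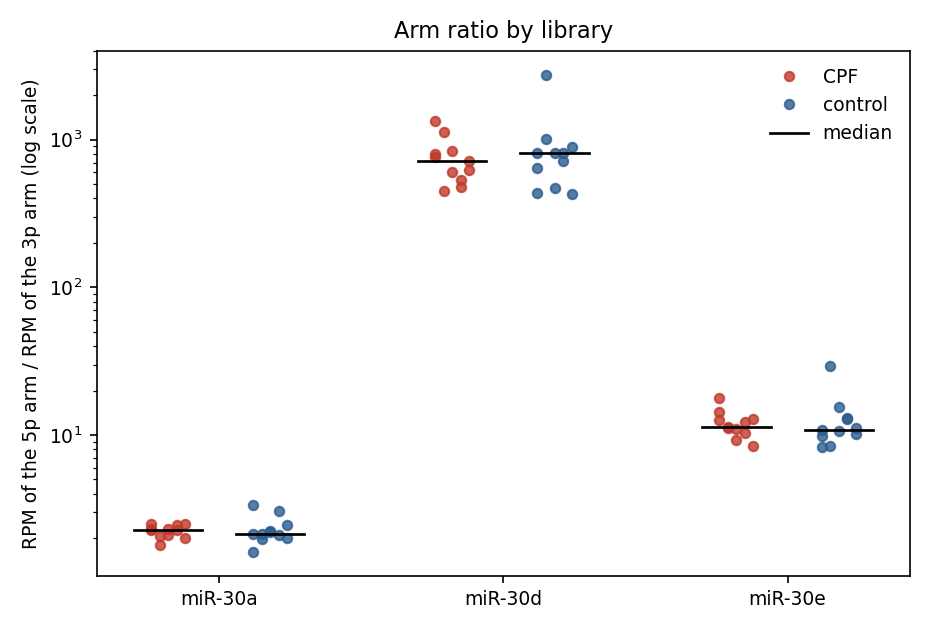
Ratio of 5p to 3p RPM on a log axis for miR-30a, miR-30d and miR-30e in each library, CPF to the left of control, with a bar at the group median. The hairpins do not overlap, with medians over all libraries of 2.23 for miR-30a, 742 for miR-30d and 11.2 for miR-30e, and control replicate 7 is the highest point for miR-30d and miR-30e.

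Control replicate 7 stood out within the family. It had the highest miR-30d-5p (79713 RPM), miR-30e-5p (22284 RPM), miR-30b-5p (649 RPM) and miR-30c (86.6 RPM) of the controls, and the lowest miR-30e-3p (765 RPM) and miR-30d-3p (28.9 RPM). Its miR-30e ratio was 29.1, against at most 17.8 in any other library, which was the ratio of CPF replicate 1. Its miR-30a-5p (1790 RPM) and miR-30a-3p (837 RPM) lay in the middle of the controls. The library also had the highest share of RPM of all 22 libraries for the 4 oligodendrocyte names, led by miR-338-3p (9.01%), and for the miR-29 names (7.63%), and the lowest vessel wall share of the controls (22.01%). CPF replicate 1 came next in both shares, with 8.18% and 7.12%, and had a vessel wall share of 21.9%, while no other library exceeded 7.45% for the oligodendrocyte or 6.30% for the miR-29 names. The part of these lists in the arm ratio was not tested.

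The first digit of the library code splits each group, with digits 3 and 6 in CPF and digits 1 and 4 in control libraries. What the digit stands for is not given, and matching 3 with 1 and 6 with 4 by order is an assumption. For digit 3 against 1, 7 of 11 miR-30 names lay below 0, against 42.1% of all tested miRNAs, and none had an unadjusted p under 0.05 (4.03% of all tested did). The 11 names include miR-30c, miR-30c-1-3p and miR-30c-2-3p, which rest on few reads, and no share among abundant miRNAs was computed for the digits. For digit 6 against 4, 11 of 11 miR-30 names lay below 0, against 52% of all tested miRNAs. In this contrast 2 names had an unadjusted p under 0.05 (7.69% of all tested did). Neither of these 2 names passed the adjusted threshold, which 0.366% of all tested miRNAs did in either contrast.

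The 2 names were miR-30b-5p and miR-30c. miR-30b-5p had 294, 334, 355, 371 and 413 RPM in the CPF libraries of digit 6, against 339 RPM at the lowest, 537 at the median and 649 at the highest of the 6 control libraries of digit 4. 5 of 6 controls lay above every one of those CPF libraries, and the lowest lay within their range. The nearest of those 5, control replicate 8, had 416 RPM, against 413 RPM in CPF replicate 11. In these libraries 1 read was 12.6 and 11.5 RPM, so that gap is less than 1 read. The log2 fold change was -0.51 (SE 0.163, 95% CI -0.85 to -0.18, limma adjusted p = 0.367). In digit 3 the same strand had 431 RPM at the lowest, 465 at the median and 495 at the highest of 6 CPF libraries, against 354, 382, 384, 481 and 493 RPM in the control libraries of digit 1. There the CPF libraries lay in the upper part of the control range, and the log2 fold change was 0.16 (95% CI -0.18 to 0.49, limma adjusted p = 0.978).

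miR-30c had 13.4, 20.9, 23.0, 24.7 and 39.8 RPM in the CPF libraries of digit 6, against 28.1 RPM at the lowest, 58.9 at the median and 86.6 at the highest of the control libraries of digit 4. In digit 3 it had 33.2 RPM at the lowest, 52.4 at the median and 94.6 at the highest of the CPF libraries, against 14.2, 18.6, 26.4, 42.2 and 55.0 RPM in the control libraries of digit 1. The log2 fold changes thus had opposite signs, -1.20 for digit 6 against 4 and 0.96 for digit 3 against 1 (limma adjusted p = 0.574 and 0.978). These levels are 1.8 reads per library in CPF digit 6, 4.17 in control digit 4, 4.5 in CPF digit 3 and 2.20 in control digit 1.

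The difference between the digit contrasts was itself tested, and 0 of 273 miRNAs passed (0%), with 11 at an unadjusted p under 0.05 (4.03%). 11 of 11 miR-30 names lay below 0 in this difference, against 58.2% of all tested miRNAs. It was -0.67 for miR-30b-5p (95% CI -1.14 to -0.20) and -2.16 for miR-30c (95% CI -3.62 to -0.70), both with a limma adjusted p of 0.865. Both names were picked by their unadjusted p in digit 6 against 4, which is part of this difference, so these intervals are not separate evidence. The contrasts within each group, given next, rearrange the same difference. Within controls, 8 of 11 names lay above 0 for digit 4 against 1 (144 of 273 tested). Within CPF, 10 of 11 lay below 0 for digit 6 against 3 (154 of 273 tested). For miR-30b-5p and miR-30c these log2 differences were 0.27 and 0.93 within controls, and -0.40 and -1.22 within CPF, none called. CPF replicates 7, 8 and 9 are 3 of the 5 CPF libraries of digit 6. Without them, in a setting added after the data were seen, 8 of 11 names lay below 0 for digit 6 against 4, against 48.0% of all 273 tested miRNAs. miR-30b-5p had a log2 fold change of -0.36 (95% CI -0.82 to 0.10). miR-30c had -0.82 (95% CI -2.20 to 0.57), and miR-30d-5p had 0.02, against -0.13 with all libraries.

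**Figure D5:**
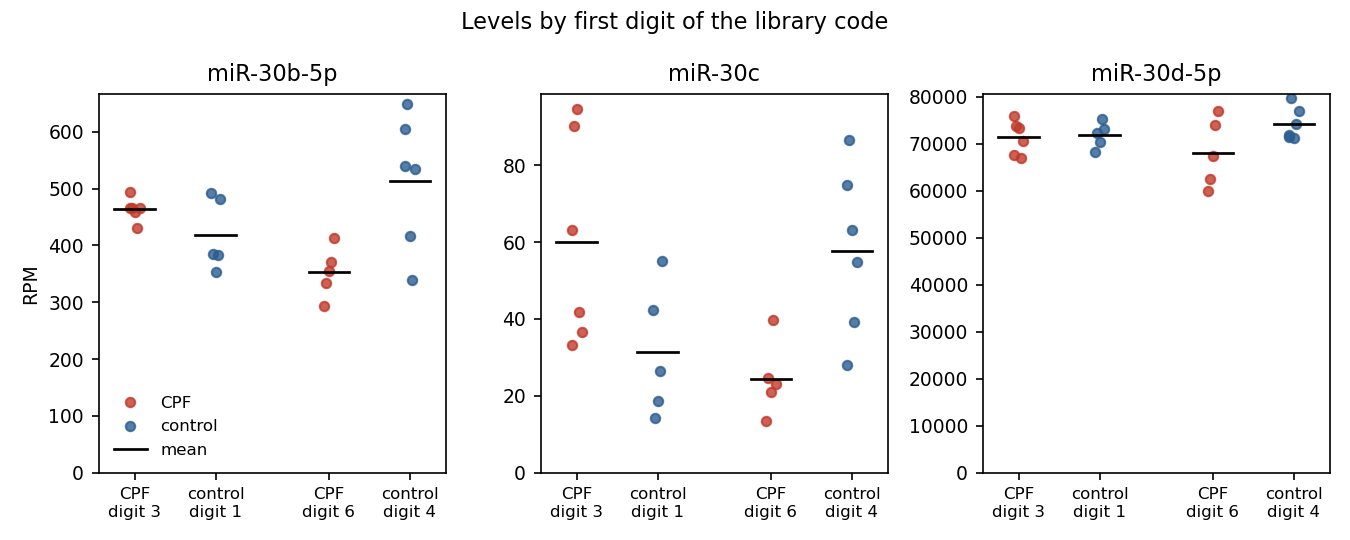
RPM of miR-30b-5p, miR-30c and miR-30d-5p by first digit of the library code, a point per library, CPF to the left of control within each pair of digits, with a bar at the mean. The CPF means of miR-30b-5p and miR-30c lie below control in digit 6 against 4 (354 against 514 RPM and 24.3 against 57.8 RPM) and above it in digit 3 against 1 (463 against 419 RPM and 59.9 against 31.3 RPM).

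How the abundant names moved together from library to library was examined after removing the group means, for the 5 names with a mean of at least 500 RPM and thus 10 pairs. No pair passed after Benjamini-Hochberg adjustment. The highest was that of miR-30d-5p with miR-30e-5p, made from separate loci, with Pearson's r of 0.372 (permutation p = 0.0881, adjusted 0.44) and Spearman's rho of 0.461 (permutation p = 0.0322, adjusted 0.322). It was 0.399 without the libraries farthest from the median, CPF replicates 7 and 11. The lowest was that of both arms of miR-30e, with r of -0.568 (permutation p = 0.00862, adjusted 0.0862) and rho of -0.249 (adjusted 0.663). Without control replicate 7 and CPF replicate 1 it was -0.0922, so it rested on those libraries. All values of a library share its depth and its fixed total.

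Outside the family, the 5 names whose levels followed miR-30d-5p most closely, of 67 with a mean of at least 500 RPM and a value in all 22 libraries, were taken by Pearson's r. They were miR-551b-3p (r = 0.646, permutation p = 0.00119, adjusted 0.0797), miR-129-2-3p (0.607, adjusted 0.0894), miR-136-3p (0.558), miR-212-5p (0.544) and miR-186-5p (0.529), the last 3 with an adjusted permutation p of 0.129 each. Spearman's rho was 0.624 for miR-551b-3p (permutation p = 0.00255, adjusted 0.0874) and 0.450 to 0.589 for the other 4. None of the 67 passed. miR-212-5p is also 1 of the 2 names called between CPF and control (log2 fold change 0.43, limma adjusted p = 0.00456), and without removing the group means its r with miR-30d-5p was 0.0316. Without CPF replicates 7 and 11, r was 0.642 for miR-551b-3p and 0.333 to 0.492 for the other 4. The r of miR-551b-3p was 0.582 within CPF and 0.854 within control libraries.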

How the data were processed

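The rule for members uses names alone, but the family and the gene lists were chosen with earlier results of these data known. The authors deposited RPM per miRNA name, per the file headers. Tools listed in the submitters' processing notes, without roles, are Partek 6.6, Bowtie, CASAVA 1.8.2 and cutadapt 1.2, and the build is rn4. How reads were annotated, multi-mapped or stranded is not given in the labels used here. Rows sharing a name were summed (13 names, no miR-30 name among them). Groups came from the labels. limma 3.58.1 with a trend (R 4.3.3) was fitted to log2(RPM + 1) of the 273 miRNAs that reached 10 RPM in 11 or more libraries, two-sided, with Benjamini-Hochberg adjustment over all 273 and a threshold of 0.05. The added 1 RPM is less than a read, so a single library at 0 can enlarge the fold change of a low name. That of miR-30c-1-3p was -0.51 with all libraries and -0.04 without CPF replicate 8, which was at 0. Folds are left out where neither group's mean reaches 3 reads. Code digits were contrasted in a model with all 4 digits. Correlations used log2(RPM + 1) centred on group means, with two-sided permutation tests (100000 resamples, scipy 1.17.1). Outside the family, the rule for naming took the 5 names most like miR-30d-5p and the lists. Depth was estimated from the largest step between low values that fit at least 90% of them, so a share of about that size was set in advance. 90.3 to 97.4% of a library's low values were whole reads, within 0.02 RPM plus a small allowance per read. Since the rest were not whole reads, no count test was run. Every one of 231 library pairs differed by more than sampling noise, with chi-square over degrees of freedom of at least 2.42. The fit was checked on simulated data, in part after median-ratio scaling. The simulated shifts were larger than those of the miR-30 names between CPF and control, so shifts of that size were not covered.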

Additional observations from a re-analysis of the deposited data

How the results depend on the processing

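With other pseudocounts, filters, scaling, unsummed rows, the replicate block or 1 library left out, no miR-30 name passed the adjusted threshold between CPF and control. That comparison gave 2 to 3 calls in the leave-one-out fits, and 2 without CPF replicates 7, 8 and 9. Replicate numbers did not pair the libraries (r of deviations from -0.111 to 0.130 over 11 pairs, 2 over 0.1, and 2 of 11 CPF libraries correlated best with their own number), and the fit with the number as a block gave 2 calls. For code digit 6 against 4, 1 call became 3 with a pseudocount of 14 and 0 without CPF replicates 7, 8 and 9 (added after the data were seen), and 0 to 2 with a library left out. For digit 3 against 1, 1 call became 0 with median-ratio scaling and 0 to 2 with a library left out. The difference between digits gave 0 calls in every setting run. Median-ratio scaling gave 1 passing pair among the abundant miR-30 names, the miR-30e arms (r = -0.669, adjusted permutation p = 0.0155). That scaling was not rerun without control replicate 7 and CPF replicate 1, and without them r was -0.0922 in the main setting. 1 miRNA like miR-30d-5p passed without centring and 1 within control libraries, miR-551b-3p in both (r = 0.663 and 0.854). With median-ratio scaling the r of miR-551b-3p fell to 0.482 and was no longer the highest. It then lay below those of miR-212-5p (0.582) and miR-136-3p (0.515). miR-30c reversed to 0.24 without CPF replicates 7, 8 and 9 and ranged from -0.25 to 0.034 with a library left out, and miR-30d-3p ranged from -0.14 to 0.12. The cause was not tested. The planned edgeR, DESeq2 and voom fits were not run, since whole reads could not be recovered in every library. Names under about 100 RPM rest on a few reads.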

Other observations

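The spread of a name between libraries can be set beside the spread that counting alone gives at its mean depth. Over all 22 libraries the coefficient of variation of miR-30d-5p was 6.61%, against 1.39% from counting, and that of miR-30e-5p 11.2%, against 2.88%. miR-30e-3p had 19.5%, against 9.84%. For miR-30a-5p (10.6% against 8.65%), miR-30a-3p (13.5% against 12.9%) and miR-30c-5p (17.9% against 17.1%) the values were close. miR-30b-5p had 20.3%, against 17.7% from counting. For miR-30c both were about equal, at 55.6% and 55.3%, and for miR-30d-3p at 37.0% and 36.7%.

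The ratio of miR-30d-5p to miR-30e-5p was 4.41 ± 0.423 in CPF and 4.32 ± 0.419 in control libraries (SD, n = 11 each), and that of miR-30d-5p to its neighbour on the chromosome, miR-30b-5p, was 172 ± 21.95 in CPF and 162 ± 34.4 in control libraries. The ratio to miR-30b-5p ran from 137 to 204 in CPF and from 119 to 219 in control libraries. CPF replicate 11 had the highest miR-30d-5p of the CPF libraries (76942 RPM) and the lowest miR-30c-5p (287 RPM).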
